A study of Homo sapiens with 24 samples.

Results

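The outer kinetochore genes described here encode the SKA complex (SKA1, SKA2 and SKA3) and the NDC80 complex (NDC80, NUF2, SPC24 and SPC25). They were taken as all probe sets whose single gene symbol in the platform annotation was one of these 7 names, and all 7 were found, as 7 of 19775 genes with a probe set. The genes were proposed with earlier results of the same arrays in view. In those results SKA1 was among the lowest genes of miR-28 cells at both times, and NUF2 was lower at 24 h. The values of these 7 genes in miR-28 against control cells are therefore a description: calls are counted, no p-values are given, and the changes with time are tested.

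P3HR1 is an established Burkitt lymphoma line, a germinal-centre-type B-cell tumour line that carries Epstein-Barr virus. Control cells carried a doxycycline-inducible pRTS1 vector from which only GFP, a fluorescent marker protein, is made. In miR-28 cells the vector also held the miR-28 precursor. All 24 arrays were of induced cells, in 4 groups of 6: each genotype was sampled at 12 h and at 24 h of doxycycline. Each vector was held by 2 bulk populations, A and B, which were each induced 3 times per time point, so the replicates are separate inductions of few cell populations and the p-values measure mainly the spread between arrays. Differences between the populations that existed before induction cannot be told apart from the effect of the precursor. For doxycycline, one label field reads 0.1 ug/ml and another 1 ug/ml, in every group alike.

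The kinetochore is the protein assembly on each centromere that holds the chromosome to spindle microtubules in mitosis. The NDC80 complex is a long rod: NDC80 and NUF2 form the end that binds the microtubule, and SPC24 and SPC25 form the end that docks on the inner parts of the kinetochore. The SKA complex loads onto NDC80 at the microtubule, where SKA1 carries a microtubule-binding domain, SKA3 contacts NDC80, and SKA2 joins the assembly, and together they keep hold of shortening microtubule ends. Their transcripts are known to be cell-cycle regulated, high in dividing cells, and many genes of this class share the cell-cycle genes homology region (CHR), a short promoter element read by the MuvB complexes.

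The induced RNA and the promoters are shown first, since the first is what the miR-28 vector adds and the second is a feature that the choice of genes did not use. RefSeq (GRCh38.p14) lists this mature product of the miR-28 hairpin at chr3:188688834-188688855 on the plus strand, with the seed, bases 2 to 8, in capitals.
hsa-miR-28-3p: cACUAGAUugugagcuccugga
The other arm, hsa-miR-28-5p, is named only.

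Promoter sequence from 250 bases before to 50 bases after the start site was matched for all 7 genes by symbol. The letters TTTGAA, the core of the CHR, were found on either strand in 5 of the 7 promoters, those of SKA1, SKA3, NDC80, NUF2 and SPC25, against 15.2% of all 35116 promoters of the same length and 10.3% of the 9285 promoters of genes bright enough to be tested here. In each of the 5 a match lay within 50 bases of the start site, where 4.62% of all promoters and 2.95% of those of tested genes held one. That narrower window was chosen after the positions were seen. The windows around these matches follow, 5′ to 3′ on the gene's strand, with TTTGAA or its reverse complement TTCAAA in capitals.
SKA1 (chr18:50375068-50375095, plus strand): cgcggcgggcggTTTGAAttttgcttac
SKA3 (chr13:21176538-21176567, minus strand): ccggcgccgagaTTCAAActagtggcggga
NDC80 (chr18:2571542-2571571, plus strand): ccggcggagaatTTCAAAttcgaacggctt
NUF2 (chr1:163321958-163321987, plus strand): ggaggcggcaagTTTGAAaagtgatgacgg
SPC25 (chr2:168890416-168890445, minus strand): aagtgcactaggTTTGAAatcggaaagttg
The match began 35 bases after the start in SKA1 and 17 after it in NUF2, and spanned the start itself in SKA3, NDC80 and SPC25. SPC25 held another match at position -247, counted from its start. SKA2 and SPC24 had no TTTGAA in this window. They held 5 and 3 copies of CCAAT, the core of the NF-Y box, and SPC25 held 2, while the other members had none and 34.6% of all promoters held at least one. The E2F-like letters GGCGGGA were present in SKA1, SKA2, SKA3, NUF2 and SPC25, against 15.4% of all promoters. For CCAAT and GGCGGGA the share among promoters of tested genes was not counted, and it may differ from these. No matches of different motifs overlapped, and a match is a description of letters, not of binding.

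**Figure D1:**
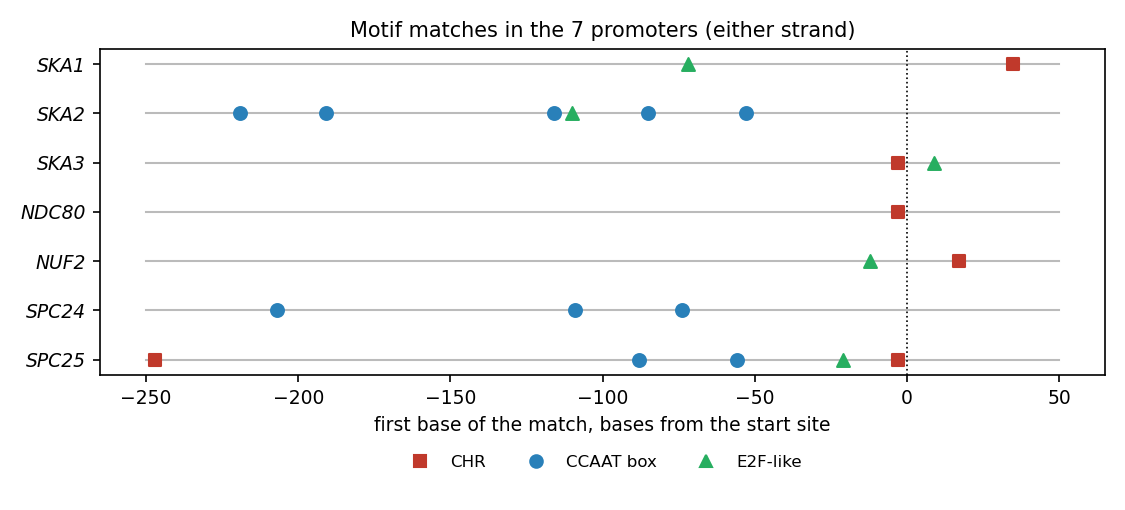
Positions of 3 motifs in the promoters of the 7 genes, as bases from the start site (x axis, 250 before to 50 after), with 1 line per gene. Squares mark TTTGAA (CHR), circles CCAAT and triangles GGCGGGA (E2F-like), on either strand; squares lie within 50 bases of the start in 5 genes, and SKA2 and SPC24 have circles but no square.

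The 7 genes were measured by 9 probe sets. SKA1, SKA3, NDC80, NUF2 and SPC25 had 1 each, and SKA2 and SPC24 had 2 each. Values are probe-set intensities on a linear scale, differences are on the scale of log2(intensity + 8), and each gene is represented by its brightest probe set. All 7 passed the filter on dim genes, a mean log2 of 6.108 or an intensity of about 61, while the second SPC24 probe set (mean intensity 40.97) did not. The single SKA1 probe set has the suffix (_x_at) that the manufacturer gives to sets whose probes can match other transcripts, so some of its signal may not be SKA1. Levels of different genes are not compared, because probe sets differ in how brightly they report.

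Basic measures of the arrays were compared between genotypes. The median intensity per array ran from 73.2 to 93.2. The 2% trimmed mean, which the authors' scaling sets, ran from 500.07 to 500.08 and so cannot show likeness. The log2 ratio of 3′ to 5′ ACTB signal ran from 0.265 to 1.05 at 12 h and from 0.304 to 1.59 at 24 h. With 6 arrays a group, the tests that follow can miss differences. Of 6 exact two-sided permutation tests of array measures between genotypes (median intensity, and the 3′ to 5′ ratios of ACTB and GAPDH, at each time), the lowest p was 0.0823 (0.494 after Benjamini-Hochberg adjustment). Markers of B cells were bright, with 5 of 6 measured at a median of 10100. The lists of T-cell, myeloid, NK-cell and fibroblast or epithelial markers had medians of 63.6, 62.3, 40 and 59.2, with no marker above 135, and the summed levels of each of these lists overlapped between genotypes at both times.

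SKA1 was the member that differed most. At 12 h its intensity in control cells had a lowest value of 459.5, a median of 577.4 and a highest of 906.7, and in miR-28 cells 185.4, 291.9 and 470.6. The groups overlapped by 1 array, miR-28 population A induction 1 (470.6), which lay above control population B induction 2 (459.5). At 24 h control cells ran from 715.4 through a median of 940.4 to 1183, and miR-28 cells from 192.8 through 360.5 to 484.0. All 6 miR-28 arrays then lay below all 6 control arrays.

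The SKA1 difference was -1.02 ± 0.21 at 12 h and -1.47 ± 0.21 at 24 h (log2 difference ± SE, 6 against 6 arrays), or 2.03-fold and 2.77-fold lower in miR-28 cells. Mean intensity was 631.8 ± 171 in control cells against 310.2 ± 98.7 at 12 h, and 951.6 ± 170 against 346.5 ± 96.3 at 24 h (SD, n = 6). At 24 h only 3 of the 11380 genes tested had a lower value than SKA1, which repeats the earlier result that the genes were proposed on. The call at 12 h was not firm. It was lost in 12 of 38 alternatives, among them leaving out control A1 (-0.96), A2 (-0.91) or A3 (-1.02), or miR-28 A3 (-1.03), B1 (-1.01), B2 (-0.89) or B3 (-0.97) of that time. At 24 h it was kept in 36 of 38.

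Both populations showed the SKA1 difference. Population A gave -1.01 at 12 h and -1.15 at 24 h, population B gave -1.04 and -1.78, and in each of these comparisons the 3 miR-28 arrays lay below the 3 control arrays. With 3 arrays a side, such separation can easily arise without a difference, and its share over all genes was not counted. Here and below it is a description only. The letters are not known to pair a control with a miR-28 population. Populations also differed within a genotype. At 12 h control cells had a mean SKA1 intensity of 761.1 ± 147 in A and 502.5 ± 41.0 in B, and miR-28 cells 375.7 ± 91.5 and 244.6 ± 55.6 (SD, n = 3). At 24 h the control populations were closer, at 914.9 ± 241 and 988.4 ± 98.5, and the miR-28 populations stood at 401.8 ± 73.3 and 291.2 ± 93.0. A test of whether the miR-28 effect differed between letters (B minus A, both times averaged) gave -0.33 ± 0.25 for SKA1, with a limma adjusted p of 0.924. No member was called in that limma test, as no gene was (0%), and 0 of 7 members had an unadjusted p under 0.05, against 6.6% of all genes.

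**Figure D2:**
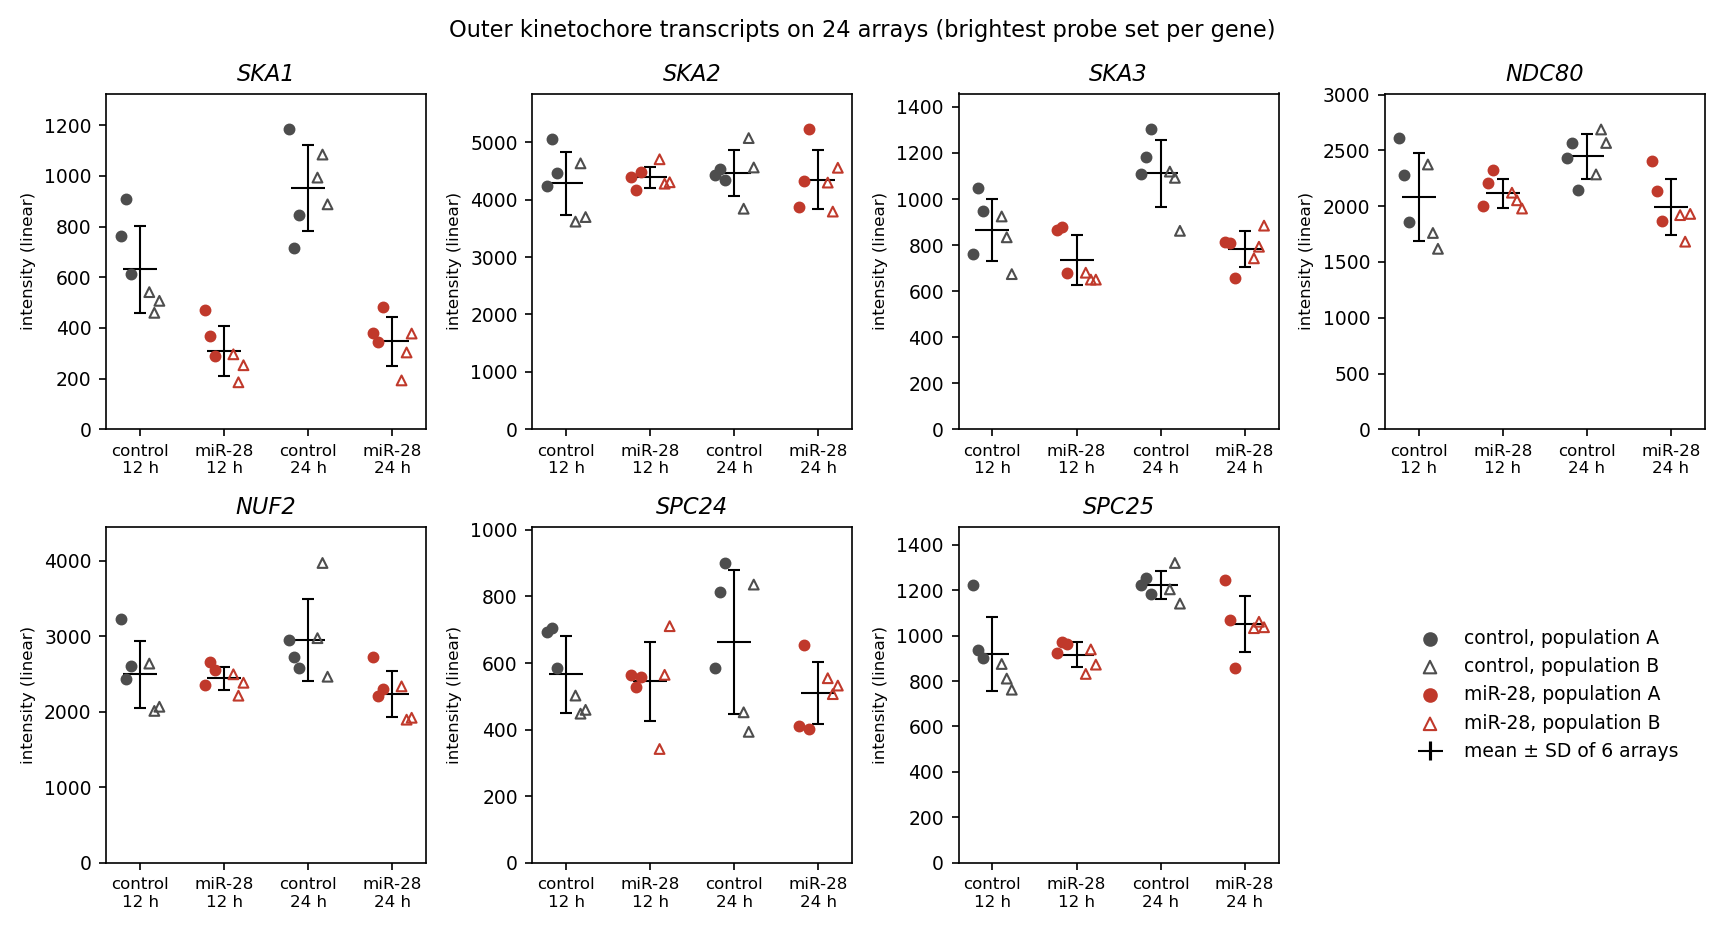
Intensity (y axis, linear, from 0) of the 7 genes on each of 24 arrays, by group on the x axis, with circles for population A, triangles for population B, and the mean ± SD of 6 arrays in black. SKA1 in miR-28 cells lies below control cells on all arrays at 24 h (192.8 to 484.0 against 715.4 to 1183), while the SKA2 values of all groups overlap.

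SKA3, the subunit that contacts NDC80, had a smaller difference in the same direction. Control cells at 12 h ran from 673.8 through a median of 878.9 to 1046, and miR-28 cells from 649.9 through 679.0 to 879.0. The groups overlapped broadly, with a difference of -0.23 ± 0.11. At 24 h control cells ran from 861.8 through 1114 to 1302 and miR-28 cells from 657.5 through 800.8 to 884.4, so that 5 of the 6 miR-28 arrays lay below every control array. The difference was -0.49 ± 0.11, a 1.41-fold lower level. It was -0.65 in population A, where the arrays did not overlap, and -0.34 in population B, where they did. The SKA3 call at 24 h was kept in 34 of 38 alternatives. It was missed under median centring of the arrays (-0.44), with population means as the unit (-0.49) and in each population alone.

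SKA2, the third subunit of the same complex, stayed within one range. On its brighter probe set control cells ran from 3616 through a median of 4345 to 5051 at 12 h and from 3841 through 4485 to 5071 at 24 h. The corresponding values of miR-28 cells were 4169, 4344 and 4702, and 3791, 4314 and 5221. The groups overlapped throughout, with differences of 0.04 ± 0.09 and -0.04 ± 0.09. The second SKA2 probe set gave 0.09 ± 0.12 and 0.11 ± 0.12. The 3 subunits of the SKA complex thus ran from -1.47 to -0.04 at 24 h, while the 4 subunits of the NDC80 complex ran from -0.39 to -0.22.

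The groups of all 4 NDC80 complex genes overlapped at 12 h. NDC80 ran from 1618 through a median of 2068 to 2610 in control cells and from 1979 through 2087 to 2325 in miR-28 cells. NUF2 ran from 2012 through 2519 to 3231 and from 2214 through 2441 to 2654. The differences of NDC80, NUF2, SPC24 and SPC25 at 12 h were 0.04 ± 0.10, -0.02 ± 0.12, -0.06 ± 0.20 and 0.01 ± 0.09, each smaller than its standard error. Within population A the SPC24 arrays did not overlap (-0.26), and in population B, at 0.13, they did. In NDC80, NUF2 and SPC25 the miR-28 arrays were the less scattered group at 12 h, with coefficients of variation of 6.27%, 6.46% and 5.94% against 18.8%, 17.9% and 17.7% in control cells, a difference that was not tested.

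Of the subunits of the microtubule-binding end, NUF2 was called lower at 24 h and NDC80 was not. NDC80 ran from 2145 through a median of 2501 to 2688 in control cells and from 1682 through 1925 to 2407 in miR-28 cells, and 5 of 6 miR-28 arrays lay below every control array. The difference was -0.30 ± 0.10. Without miR-28 A1 at 24 h, the brightest array of its group, NDC80 was called at -0.36. NUF2, its partner in the same rod, ran from 2465 through 2844 to 3972 in control cells and from 1896 through 2255 to 2725 in miR-28 cells, again with 5 of 6 arrays below every control array. Its difference of -0.39 ± 0.12 was called by a narrow margin, in 13 of 38 alternatives. Of the 24 fits that each left out 1 array, the call was kept in 8, those without control A1, A3, B2 or B3 or miR-28 A2 at 12 h, or without control A3 or B3 or miR-28 A1 at 24 h, and over all 24 the difference ran from -0.45 to -0.31. In population A alone NDC80 gave -0.16 and NUF2 -0.20, and in population B, where the arrays of both genes did not overlap, -0.44 and -0.59.

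The docking subunits SPC24 and SPC25 were not called at 24 h. SPC25 ran from 1141 through a median of 1214 to 1320 in control cells and from 859.4 through 1049 to 1246 in miR-28 cells. Of its 6 miR-28 arrays 5 lay below every control array, with a difference of -0.22 ± 0.09 that was the same in both populations (-0.22 and -0.22). Its arrays did not overlap in population B and did in population A. For SPC24, control cells ran from 393.3 through 698.0 to 900.6 at 24 h and miR-28 cells from 402.9 through 519.5 to 652.8, with a difference of -0.32 ± 0.20, of which -0.65 came in population A and 0.00 in population B. Its dim second probe set, below the filter, gave 0.44 ± 0.44 at 12 h and 0.14 ± 0.44 at 24 h and carries no usable level.

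In all, 1 of the 7 genes, SKA1, was called at 12 h, lower in miR-28 cells, at an adjusted p under 0.05 over all genes, where 0.316% of the 11380 genes tested were called lower. At 24 h 3 of 7 were called lower, SKA1, SKA3 and NUF2, against 2.75% of all genes. Groups that did not overlap, with miR-28 lower, were found at 24 h in SKA1 among the 7 and in 1.9% of all genes. Since the genes were chosen on this contrast, nothing is read from these shares. When all 8 member probe sets above the filter were fitted singly, those of SKA1 and SKA3 were called lower at 24 h (2 of 8, against 1.51% of probe sets) and none at 12 h (0.126% of probe sets). All 7 values were below 0 at 24 h with a median of -0.32, against 0.02 over all genes tested, and 4 of 7 were below 0 at 12 h with a median of -0.02, against 0.01. Median centring of the arrays left 1 member called at 24 h (SKA1), with NUF2 at -0.34. It also moved the share of lower genes among all calls, from 51.4% to 27.4% at 24 h and from 59% to 73.3% at 12 h, while no member called in these fits changed sign.

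**Figure D3:**
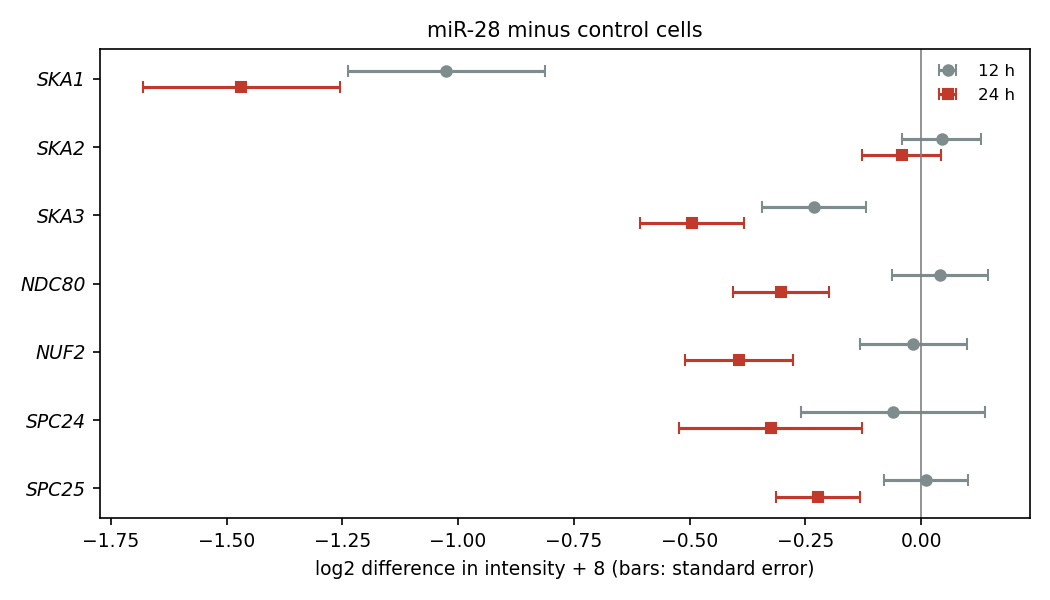
Log2 difference in intensity + 8 between miR-28 and control cells (x axis, bars are standard errors) for the 7 genes, with circles for 12 h and squares for 24 h. SKA1 stands at -1.02 and -1.47, the other genes lie between -0.23 and 0.04 at 12 h, and at 24 h SKA2 stands at -0.04 and the other 5 genes lie between -0.49 and -0.22.

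The change with time asked how the transcripts moved from 12 h to 24 h of induction in each genotype, a contrast not used to choose the genes, although it shares its arrays with the comparisons above. In control cells SPC25 rose by 0.42 ± 0.09 (limma adjusted p 0.00864), 1.34-fold, from a range of 762.1 to 1225 at 12 h to one of 1141 to 1320 at 24 h. The ranges overlapped only through control population A induction 1 at 12 h (1225). The call was kept without each of the 24 arrays in turn, but under median centring SPC25 stood at 0.44 and was not called, nor was it called with population means as the unit (0.42) or in population A (0.27) or B (0.58) alone.

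SPC25 was the 1 member of 7 called in control cells, against 6.14% of all genes called in either direction and 3.6% called higher. The other values were above 0 and did not pass: 0.61 ± 0.22 for SKA1 (limma adjusted p 0.106), 0.36 ± 0.12 for SKA3 (0.0643), 0.25 ± 0.11 for NDC80, 0.24 ± 0.12 for NUF2, 0.18 ± 0.205 for SPC24 and 0.07 ± 0.09 for SKA2. SKA3 passed without control A2 at 12 h (0.42, adjusted p 0.0377) or control B3 at 24 h (0.435, adjusted p 0.0252), and under the stricter filter, quantile normalization and array weights. For SKA1 the change in control cells came mostly in population B, whose mean intensity went from 502.5 to 988.4, while population A went from 761.1 to 914.9.

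In miR-28 cells no member was called by limma between the times (0 of 7, and 0 of 7 at an unadjusted p under 0.05), where 4.66% of all genes were called and 18.9% had such an unadjusted p. The values ran from -0.14 ± 0.12 for NUF2 to 0.19 ± 0.09 for SPC25 (limma adjusted p 0.285), and SKA1 stood at 0.16 ± 0.22. Median centring moved the share of lower genes among all these calls from 43% to 9.81%, with still 0 members called. The difference between these changes, which is also the growth of the miR-28 effect, was below 0 for all 7 genes, from -0.44 ± 0.31 for SKA1 and -0.38 ± 0.17 for NUF2 to -0.09 ± 0.125 for SKA2. It contains the genotype comparisons that the genes were proposed on, so its direction is not independent of their choice. Values below 0 were also found in 42 of the 47 partner genes described below and in 5580 of all 11380 genes. None of the 7 genes passed, with a lowest limma adjusted p of 0.659 among the members and 0 of 11380 genes (0%) called, although 2 of the 7 genes and 6.92% of all genes had an unadjusted p under 0.05. The rise of SPC25 in control cells and its absence from the calls in miR-28 cells are thus not shown to differ (-0.23 ± 0.13, limma adjusted p 0.769).

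**Figure D4:**
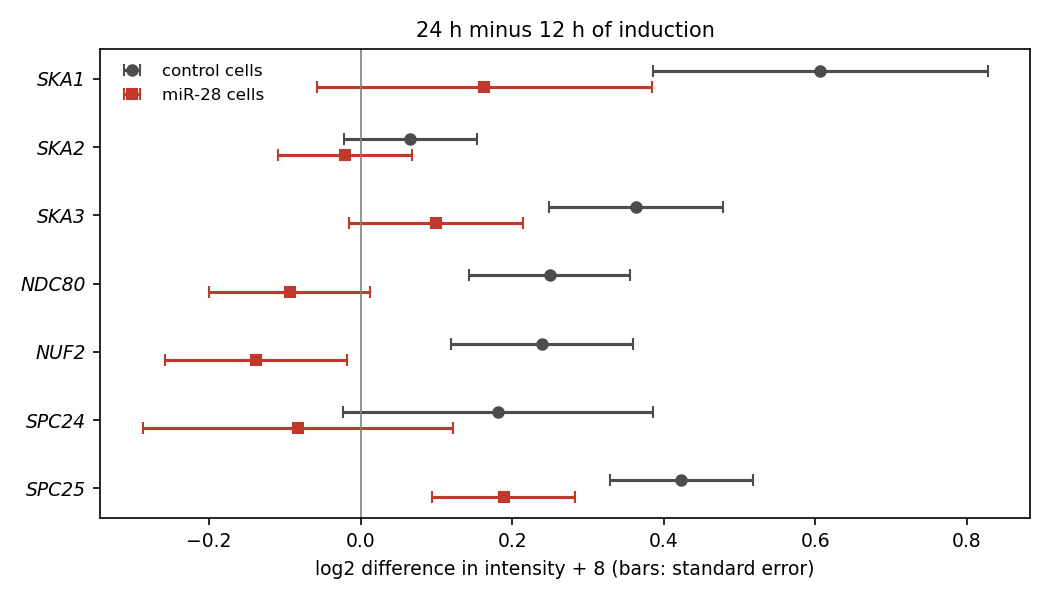
Log2 difference in intensity + 8 between 24 h and 12 h of induction (x axis, bars are standard errors) for the 7 genes, with circles for control and squares for miR-28 cells. Control values run from 0.07 (SKA2) to 0.61 (SKA1) and miR-28 values from -0.14 (NUF2) to 0.19 (SPC25).

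Over the 24 arrays the members lay at differing distances from SKA1 and from NDC80. Likeness was measured as the root mean square difference between standardised log2 profiles (0 for identical profiles, with a median of 1.4 between SKA1 and all other genes tested). The closest genes to SKA1 were UBR7 (0.495), the clamp-loader gene RFC3 (0.533), the co-chaperone gene BAG1 (0.588), the kinase gene MAPK6 (0.600) and DCTPP1 (0.607), which removes noncanonical deoxynucleotides. SKA3 was the nearest member at 0.676, in place 24 of all genes, and NUF2 followed at 0.891, while SKA2 (1.25) and SPC24 (1.22) were far. Each profile was scaled to the same spread, so a gene with little change, as SKA2, or wide scatter, as SPC24, can lie far from any other.

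The genes closest to NDC80 outside the 7 were the checkpoint kinase gene TTK (0.585), the chromatin gene DEK (0.612), the condensin subunit gene NCAPG (0.668), the kinase gene VRK1 (0.681) and DNAJC9 (0.682), a histone co-chaperone gene. NUF2, its direct partner in the complex, stood in place 3 at 0.619 and SPC25 in place 17 at 0.760, whereas SKA1 (0.973) was in place 277 and SPC24 (1.19) in place 1793. The profiles share arrays and scaling and include the genotype difference that the genes were proposed on, so these distances are a description.

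The partners of the outer kinetochore were taken from lists of its neighbours in the cell. Of 51 listed genes 48 had a probe set and 47 were tested, and at 24 h 14 were called lower and none higher, with a median of -0.26, against 2.75% of all genes called lower and a median of 0.02. These lists, like the members, were chosen with earlier results known, so their p-values are not independent evidence of direction. Median centring called 6 lower and quantile normalization 14, and over the 37 alternatives run for this list the count ran from 0 to 16. At 12 h 0 of 47 were called by limma, with a median of 0.00, 22 of 47 values below 0 and 3 at an unadjusted p under 0.05, as were 1100 of all 11380 genes.

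The KNL1 and MIS12 complexes form the microtubule-binding network together with the NDC80 complex, and 2 of 6 genes were called lower at 24 h. KNL1, the scaffold for checkpoint proteins, stood at -0.46 ± 0.11 (limma adjusted p 0.0137) and its partner gene ZWINT at -0.33 ± 0.08 (0.0144), while MIS12 stood at -0.07 ± 0.09. Other KNL1 probe sets gave -0.38 ± 0.14 and -0.17 ± 0.18. In control cells 4 of the 47 partner genes rose between the times, CENPU by 0.65 ± 0.08 (limma adjusted p 7.82e-05), KNTC1 by 0.43 ± 0.10 (0.0144), ZWINT by 0.41 ± 0.08 (0.00323) and CENPO by 0.34 ± 0.09 (0.0286), against 3.6% of all genes called higher. In miR-28 cells 8 of the 47 were called lower at 24 h than at 12 h and 0 higher, against 228 of all 11380 genes called lower. They were CENPN, CENPE, CENPF, BIRC5, CDC20, MAPRE1, KNSTRN and NEK2, with values from -0.60 to -0.32. Median centring cut the 228 to 57, and its count for the partner genes was not made. Of 15 inner kinetochore genes, which hold the NDC80 complex to the centromere, 2 were called lower in miR-28 than in control cells at 24 h. They were CENPO at -0.56 ± 0.09 (limma adjusted p 0.000442) and CENPU at -0.43 ± 0.08 (0.00228). A second CENPO probe set gave 0.11 ± 0.21, and other CENPU probe sets gave -0.49 ± 0.20 and -0.40 ± 0.15. CENPC stood at -0.05 ± 0.09, and CENPT, which recruits the NDC80 complex through SPC24 and SPC25, was at 0.13 ± 0.32.

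Of 6 corona genes, of the fibrous outermost layer, all 6 values were below 0 and 2 were called lower, the kinesin gene CENPE at -0.44 ± 0.10 (limma adjusted p 0.012) and CENPF at -0.34 ± 0.10 (0.0435). Other CENPF probe sets gave -0.45 ± 0.21 and -0.135 ± 0.16. Among 4 genes of the chromosomal passenger complex, whose kinase AURKB loosens wrong attachments by phosphorylating NDC80, CDCA8 was lower at -0.37 ± 0.09 (0.0129) and AURKB, not called, stood at -0.23 ± 0.09. Of the spindle checkpoint list 6 of 7 values were below 0 and 4 were called lower, MAD2L1, BUB1, BUB1B and CDC20, with values from -0.52 to -0.29. Other BUB1 probe sets gave -0.16 ± 0.30, -0.425 ± 0.11, -1.49 ± 0.34 and -0.27 ± 0.48, and those of MAD2L1 gave -0.54 ± 0.10 and -0.29 ± 0.15. Of 9 microtubule partners 3 were called lower. MAPRE1, which tracks growing ends, had -0.82 ± 0.09, and -0.67 ± 0.09 on another probe set. The genes of the spindle-associated partners KNSTRN and SPAG5 had -0.49 ± 0.08 and -0.33 ± 0.09.

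Genes that mark proliferation in general were set beside them. Of 13 such genes 8 were called lower at 24 h (2.75% of all genes) and none higher, with a median of -0.36 beside -0.32 for the outer kinetochore genes and 0.02 for all genes, and median centring called 3. The lowest of those called were CCNA2 (-0.45 ± 0.09), FOXM1 (-0.465 ± 0.09) and MYBL2 (-0.47 ± 0.12), which encode a cyclin and transcription factors of the cell-cycle gene programme. The others called were AURKA (-0.42), PCNA (-0.34), CDK1 (-0.30), CCNB2 (-0.27) and CCNB1 (-0.26). Other probe sets gave 0.335 ± 0.25 for CCNB2 and values from -0.43 to -0.30 for AURKA, CCNA2, CCNB1 and CDK1. At 12 h their median was -0.04 and 0 of 13 were called by limma, with 2 at an unadjusted p under 0.05. In these bulk RNA samples a smaller share of cells in mitosis and less RNA per cell cannot be told apart, and the part of the proliferation genes in the outer kinetochore values was not tested. The SKA1 difference was -1.02 at 12 h, when the median of this list was -0.04 and its lowest value was that of LIN54 (-0.84 ± 0.34, not called), a MuvB subunit gene, and the difference between SKA1 and the list was not tested.

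**Figure D5:**
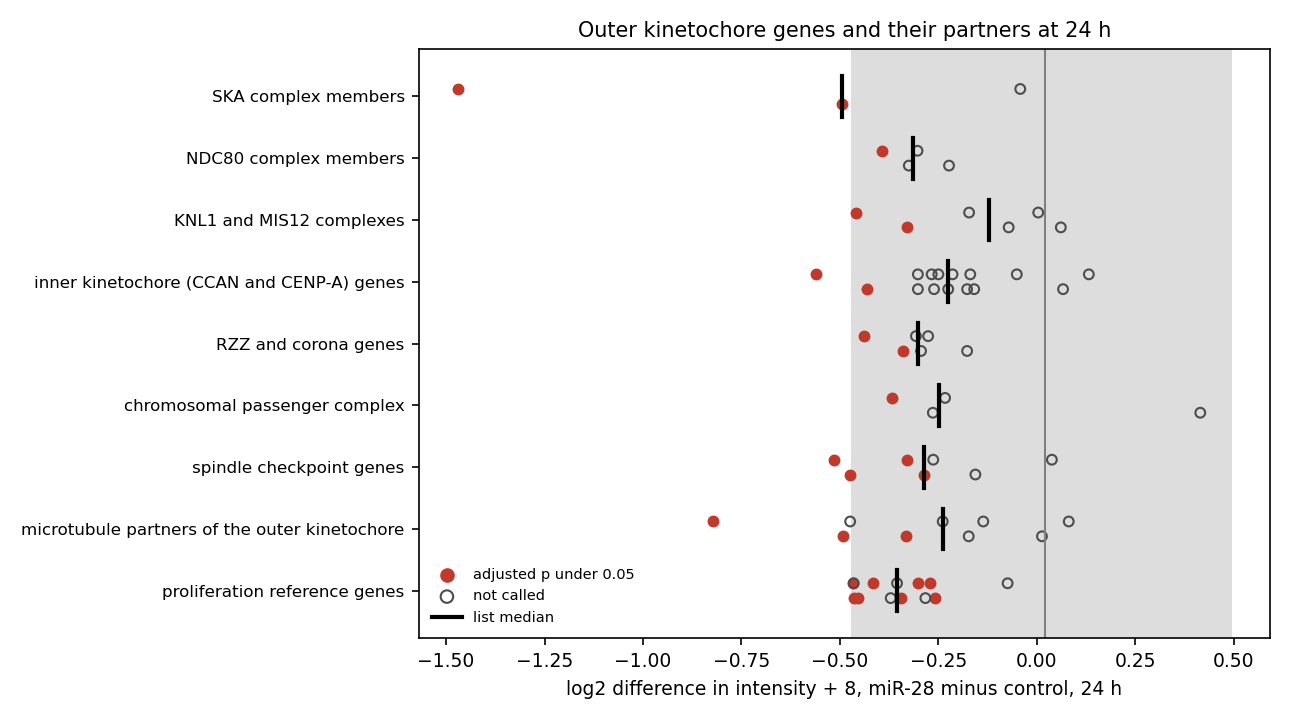
Log2 difference in intensity + 8 between miR-28 and control cells at 24 h (x axis) for each tested gene of 9 lists, filled where the limma adjusted p was under 0.05 and open otherwise, with list medians as black bars. The grey band holds the middle of all 11380 genes, from the 5th percentile (-0.469) to the 95th (0.493), and SKA1 at -1.47 and MAPRE1 at -0.82 lie farthest below it.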

How the data were processed

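RNA was measured on 24 arrays. The authors deposited 1 intensity per probe set, not log-transformed, made with MAS5 per the submitters' processing notes; its version is not given in the sources used here. Of 54675 probe sets, 62 controls were left out. By the platform annotation 41091 had 1 symbol, updated by gene number through RefSeq (54 unmatched), 1801 had several and 11721 none listed. Values were taken as log2(intensity + 8). Each gene was represented by its brightest probe set, and 11380 of 19775 genes with a mean above 6.108, the median of all probe sets, were kept. A group-means model was fitted over all arrays with limma 3.58.1 (statmod 1.5.0, R 4.3.3), with bulk population as a random block (correlation -0.0229), moderated statistics tested from both sides, and Benjamini-Hochberg adjustment over all genes. Because this correlation was negative, the block did not widen the standard errors of the genotype comparisons. Without the block 531 rather than 609 genes were called at 24 h, and NUF2 was not among them. The pipeline was run on simulated data with independent noise on each array and changes added to miR-28 cells at 24 h only. Those data held no differences between populations, so the run cannot show how the model handles them. Other probe sets of the members were fitted among 26223 probe sets. Precision is limited by how many arrays each group had.

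The members, lists and tests were chosen with earlier results of these data known. All members were named, with called genes of each list (or a gene named after its values were seen, as MIS12, CENPC, CENPT and AURKB) and the 5 genes most like SKA1 and NDC80. Letter and number together were not found to pair arrays across genotypes, and pairing by letter alone was not tested.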

Additional observations from a re-analysis of the deposited data

How the results depend on the processing

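The 38 alternatives kept the sign of every member called in the main analysis: SKA1 at both times, SKA3 and NUF2 at 24 h, and SPC25 with time in control cells. Called members at 12 h (1 of 7) numbered 0 without the filter, in the probe-set fit, with population means as the unit, and in population A or B alone. At 24 h (3 of 7) they numbered 2 without the filter, without the block, with the replicate block, with the mean of all probe sets and in the probe-set fit. They numbered 1 with median centring, 0 with population means, 0 in A and 1 in B. In control cells with time (1 of 7) they numbered 2 with the stricter filter, 2 with quantile normalization, 2 with array weights, and 0 with median centring, with population means, in A and in B. Of the 8 member probe sets tested at 24 h 2 were called lower, with 1 without the filter (9 tested), 1 with median centring, and 0 in A or B alone. Leaving out 1 array gave 0 to 1 called members at 12 h, 2 to 4 at 24 h, 1 to 2 with time in control cells, and 0 for time in miR-28 cells, growth and the population difference.

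With the replicate block (letter and number) limma called 1 member at 12 h and 2 at 24 h, NUF2 being lost at -0.39. In their deviations from group means, the 12 same-labelled array pairs of the 2 genotypes correlated at -0.0938 to 0.0683 (median 0.0253). The 60 other pairs correlated at -0.0989 to 0.105 (median -0.009). No pairing by letter and number was seen, but correlations this weak cannot exclude it. Pairing by letter alone was not tested. Over all genes, 61 and 609 calls became 30 and 368 without the filter, 0 and 48 in population A, 0 and 38 in B, and 0 and 0 with population means. The mean of all probe sets gave 30 at 12 h. Calls with time over all genes, 699 in control and 530 in miR-28 cells, became 364 and 207 without the filter, 466 and 292 with the mean of all probe sets, 17 and 8 in A, 34 and 2 in B, and 0 and 0 with population means, and median centring gave 421 in control cells. Of the other kinetochore and proliferation genes, 14 and 8 were called lower at 24 h, against 9 and 4 without the filter, 6 and 3 with median centring, 0 and 0 in A or with population means, and 2 and 0 in B, counts added after the data were seen. Precision was limited by the number of arrays and populations, and by dim signal for the second SPC24 probe set.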
